A study of Mus musculus with 2 samples.

Results

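The Trim genes encode tripartite motif proteins, which carry a RING domain, B-box zinc fingers and a coiled coil, usually followed by a C-terminal domain that binds the target. Most act as E3 ubiquitin ligases. Several of them restrict viruses or tune the RNA and DNA sensing pathways that lead to interferon, and a subset is itself induced by interferon, whereas other members work in transcription, cell division or protein quality control. Members were taken by name, as every symbol that begins with Trim followed by a digit, which gave 67 of the 27933 symbols in the deposited gene lists. From textbook knowledge, 14 of them were listed as induced by interferon (Trim5, Trim12a, Trim12c, Trim14, Trim21, Trim25, Trim26, Trim30a, Trim30b, Trim30c, Trim30d, Trim34a, Trim34b and Trim56), and the other 53 formed the second list.

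The data are droplet-based single-cell RNA counts of immune cells from lymph nodes of mice aged 6 to 8 weeks that had received a transplanted heart. In the allogeneic group the donor was C57BL/6 and the recipient Balb/c, and in the syngeneic group donor and recipient were both Balb/c. The recipient strain and the operation were therefore common to both groups, and the groups differed in the donor strain. Each group was 1 library of unique molecular identifiers (UMIs), and how many mice it came from, and at what time after transplantation, is not stated in the labels.

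With 1 library per group there is no replicate and no test. Cells were assigned to 4 gates by their own marker UMIs: CD4 T (287 allogeneic and 1189 syngeneic cells), CD8 T (499 and 2730), Foxp3+ T (97 and 144) and B (319 and 821). Foxp3 marks regulatory T cells. UMIs were summed per library and gate and expressed as CPM, the UMIs of a gene scaled to a common total per gate. Ratios are allogeneic over syngeneic, on the log2 scale where so named, with exact Poisson 95% intervals that cover counting error only and not differences between mice. A sum over a gate cannot tell a higher level per cell from a different mix of cells within the gate.

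The libraries differed in more than the graft. The allogeneic list of 3500 barcodes starts at 150 UMIs and the syngeneic list of 7967 at 3447, and median UMIs per cell in the gates were 2310 to 4055 against 4201 to 5169. Haemoglobin transcripts made up 1.11% to 3.34% of allogeneic UMIs in the gates and 0.00386% to 0.242% of syngeneic ones. All 4 neutrophil markers were detected in each allogeneic gate, with summed levels of 17039.5 CPM (CD4 T), 17867.2 CPM (CD8 T), 1115 CPM (Foxp3+ T) and 1226 CPM (B) against 67.4, 22.1, 5.52 and 69.4 CPM in the syngeneic gates. The 5 macrophage markers summed to 496 against 207 CPM in CD4 T, 417 against 63.3 CPM in CD8 T, 65.9 against 66.2 CPM in Foxp3+ T and 65.3 against 171 CPM in B cells. In the last 2 gates the sums hold opposite directions. In B cells Lyz2 (log2 -1.72) and Cd68 (-2.23) were lower, and C1qa, C1qb and C1qc had 5, 4 and 4 against 2, 3 and 3 UMIs. In Foxp3+ T cells Lyz2 was at -0.84 (-1.84 to 0.04), and C1qa, C1qb and C1qc had 1, 5 and 3 UMIs against 0 each. Siglech, a plasmacytoid dendritic cell marker, had 0 allogeneic UMIs in each gate, against 110 (CD4 T), 137 (CD8 T), 16 (Foxp3+ T) and 289 (B). Of the same marker list, Ccr9 had 1 against 104 UMIs in the B gate. Bst2 had a log2 ratio of 0.03 (-0.21 to 0.27) there and was higher in CD4 T (0.48), CD8 T (1.02) and Foxp3+ T cells (0.44). In the B gate the B cell markers Ms4a1 (log2 -1.18, -1.32 to -1.05) and Cd22 (-0.92, -1.16 to -0.70) were lower, beside Cd79a (0.25, 0.18 to 0.32) and Cd79b (-0.02, -0.10 to 0.06). In the Foxp3+ T gate the markers of regulatory T cells went both ways. Il2ra (log2 -0.93, -1.51 to -0.38) and Ikzf2 (-0.58, -0.86 to -0.31) were lower. Foxp3 (0.77, 0.46 to 1.07) and Ctla4 (2.01, 1.64 to 2.38) were higher, and Tnfrsf18 was at 0.16 (-0.11 to 0.41). Cells of this gate may thus differ in kind between the libraries. The part of all these markers in the results was not tested. Without cells that held over 1% neutrophil-marker UMIs, the median log2 ratio of the interferon-listed members was 0.79 for the CD4 T gate, 0.997 for CD8 T, 0.61 for Foxp3+ T and 1.36 for B, and without cells over 1% haemoglobin it was 0.71, 0.94, 0.63 and 1.40. The libraries shared 66 barcodes, and without these the medians were 0.68, 0.89, 0.51 and 1.35. The corresponding values with all gated cells were 0.70, 0.90, 0.60 and 1.36.

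Of the 14 interferon-listed genes, 9 lie with Trim6 in a single block on chromosome 7 (mm10, positions 104218793 to 104507849, 289057 bases), in which all 10 protein-coding genes of the GENCODE annotation are Trim members. The RefSeq promoter windows (GRCm38.p6, 250 bases before to 50 after each start) were searched on both strands for GAAA, any 2 bases and GAAA again, a core of the interferon-stimulated response element to which IRF proteins bind. The stretches below are shown because the 4 genes are neighbours whose windows hold that core just upstream of the start. Each runs 5′ to 3′ on the gene's strand and ends at the base before the start, and capitals mark the match, which reads as TTTC, any 2 bases and TTTC because it lies on the opposite strand. The windows are those of Trim30a (chr7:104465194-104465293, minus strand), Trim30d (chr7:104507850-104507949, minus strand), Trim12c (chr7:104353350-104353449, minus strand) and Trim5 (chr7:104288107-104288206, minus strand).
Trim30a: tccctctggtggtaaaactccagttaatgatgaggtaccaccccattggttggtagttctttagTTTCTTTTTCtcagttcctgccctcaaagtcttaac
Trim30d: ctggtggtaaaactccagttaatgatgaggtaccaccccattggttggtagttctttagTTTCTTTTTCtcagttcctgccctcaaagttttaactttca
Trim12c: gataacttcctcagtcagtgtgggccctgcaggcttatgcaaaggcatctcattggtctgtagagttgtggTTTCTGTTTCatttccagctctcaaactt
Trim5: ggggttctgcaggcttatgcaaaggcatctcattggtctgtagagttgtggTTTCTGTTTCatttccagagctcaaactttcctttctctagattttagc

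Over 80 bases aligned on the match (50 before it and 20 after), Trim30a and Trim30d were identical at 80 positions, Trim12c and Trim5 at 76, and Trim30a and Trim12c at 36. A match in near-identical neighbours is thus not independent evidence from each gene. Shared promoter letters went with very unequal detection: over both libraries and the 4 gates Trim30a had 597 allogeneic and 1800 syngeneic UMIs, whereas Trim30d had 17 and 9, and Trim12c had 398 and 1743 where Trim5 had 1 and 1.

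Other interferon-listed genes held the core just after the start, and Trim21 carried 2 overlapping matches on its own strand, from base 13 to base 28 after the start. The 30 bases around each are shown for Trim21 (chr7:102565447-102565476, minus strand) and Trim34a (chr7:104244457-104244486, plus strand). Trim26 had 2 overlapping matches farther upstream, and 100 bases around them are given (chr17:36836943-36837042, plus strand).
Trim21: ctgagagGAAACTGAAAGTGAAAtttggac
Trim34a: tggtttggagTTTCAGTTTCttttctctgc
Trim26: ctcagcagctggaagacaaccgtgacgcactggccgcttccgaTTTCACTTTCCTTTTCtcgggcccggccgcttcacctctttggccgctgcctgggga

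Promoter entries were found for 52 of the 67 members, 13 of them interferon-listed. The core was present in 8 of these 13 (Trim5, Trim12a, Trim12c, Trim21, Trim26, Trim30a, Trim30d and Trim34a) and in 1 of the other 39 (Trim2), beside 3.99% of the 27025 genes with a promoter entry. The 30 bases around the Trim12a match have the same letters as those in Trim5. With the near-identical neighbours above, the 8 are fewer independent matches than their number. Trim25, Trim30b, Trim30c, Trim34b and Trim56 had no match in this window. These are letter matches and not evidence of binding.

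**Figure D1:**
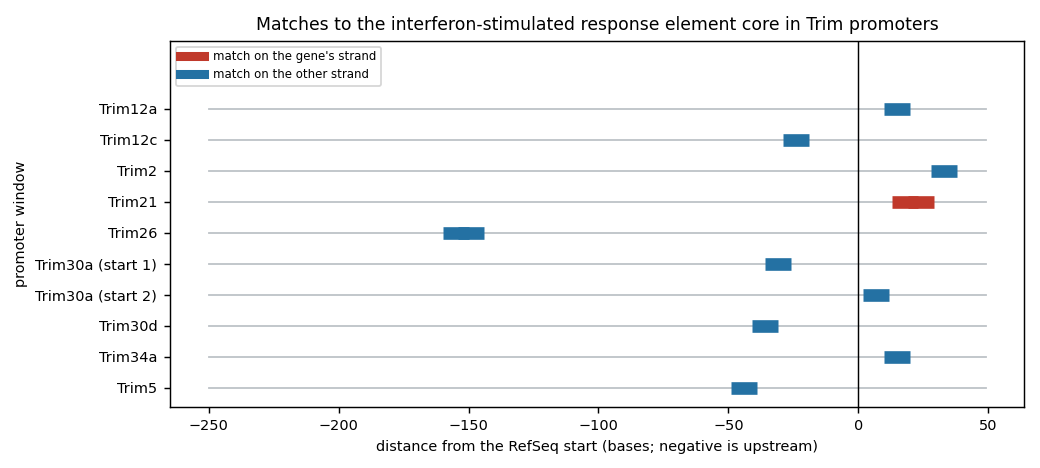
Matches to the interferon-stimulated response element core in the promoter windows of the 9 Trim members that hold one (Trim30a has 2 annotated starts). The x axis is the distance in bases from the RefSeq start, grey lines are the windows, and bars are matches, coloured by strand. Most matches lie within 50 bases of the start, and those of Trim26 lie farther upstream.

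The interferon-listed members were higher in the allogeneic library in all 4 gates. A gene entered a comparison with at least 20 UMIs over both libraries in the gate. In CD4 T cells 8 interferon-listed members entered and 8 had the higher CPM in the allogeneic library, as did 53.2% of all 9492 genes that entered. In CD8 T cells this held for 9 of 9 (all genes 50.1%), in Foxp3+ T cells for 7 of 7 (52.3%) and in B cells for 10 of 10 (49.3%). Their summed level was 467 against 291 CPM in CD4 T, 516 against 307 CPM in CD8 T, 461 against 277 CPM in Foxp3+ T and 667 against 300.4 CPM in B cells, where the ratio was 2.22-fold (log2 1.15, 1.01 to 1.30).

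The median log2 ratio of the interferon-listed members was 0.70 in CD4 T, 0.90 in CD8 T, 0.60 in Foxp3+ T and 1.36 in B cells, beside 0.05, 0.00, 0.03 and -0.01 over all genes that entered. The other Trim members had medians of -0.14 (18 genes), -0.04 (20 genes), 0.24 (9 genes) and 0.11 (17 genes). The interval of the ratio lay above 1 for 5 of 8, 8 of 9, 3 of 7 and 8 of 10 interferon-listed members, where 18.3%, 19.4%, 13.1% and 17% of all genes did so. Among the other members it lay above 1 for 1 of 18, 2 of 20, 2 of 9 and 3 of 17. It lay below 1 for 2, 4, 1 and 1 of them (all genes 13.2%, 17.8%, 11.2% and 17.7%) and for none of the interferon-listed members that entered.

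By the fixed 2-fold rule, over both lists, 3 of 26 members were higher in CD4 T cells (all genes 9.44%), 4 of 29 in CD8 T cells (8.85%), 4 of 16 in Foxp3+ T cells (9.51%) and 9 of 27 in B cells (9.23%). At least 2-fold lower were 2, 1, 1 and 1 members (all genes 6.41%, 6.23%, 7.36% and 10.6%). Over both lists together the shares in both T cell gates with most cells are near the background, and the interferon-listed members there were mostly displaced by less than 2-fold. Of the interferon-listed members alone, 2 of 8 in CD4 T, 3 of 9 in CD8 T and 2 of 7 in Foxp3+ T cells were past 2-fold. B cells had the most, with 6 of 10 interferon-listed members past 2-fold.

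The B cell values differed when shallow cells were left out. When only cells with at least 3447 UMIs, the lowest syngeneic barcode, were used, 36 allogeneic B cells remained, and the median of the interferon-listed members was 0.67 in place of 1.36. The median of the other Trim members in B cells was then 0.41 in place of 0.11, so the lists lay closer together, and 23 members entered in place of 27. In the same setting the interferon-listed median was 0.59 in CD4 T (119 allogeneic cells), 0.70 in CD8 T (344 cells) and 0.37 in Foxp3+ T cells (40 cells). The other members had -0.25, -0.17 and -0.39 in these gates, the last in place of 0.24. The setting changes both the depth and which cells are kept, and the part of each was not tested.

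**Figure D2:**
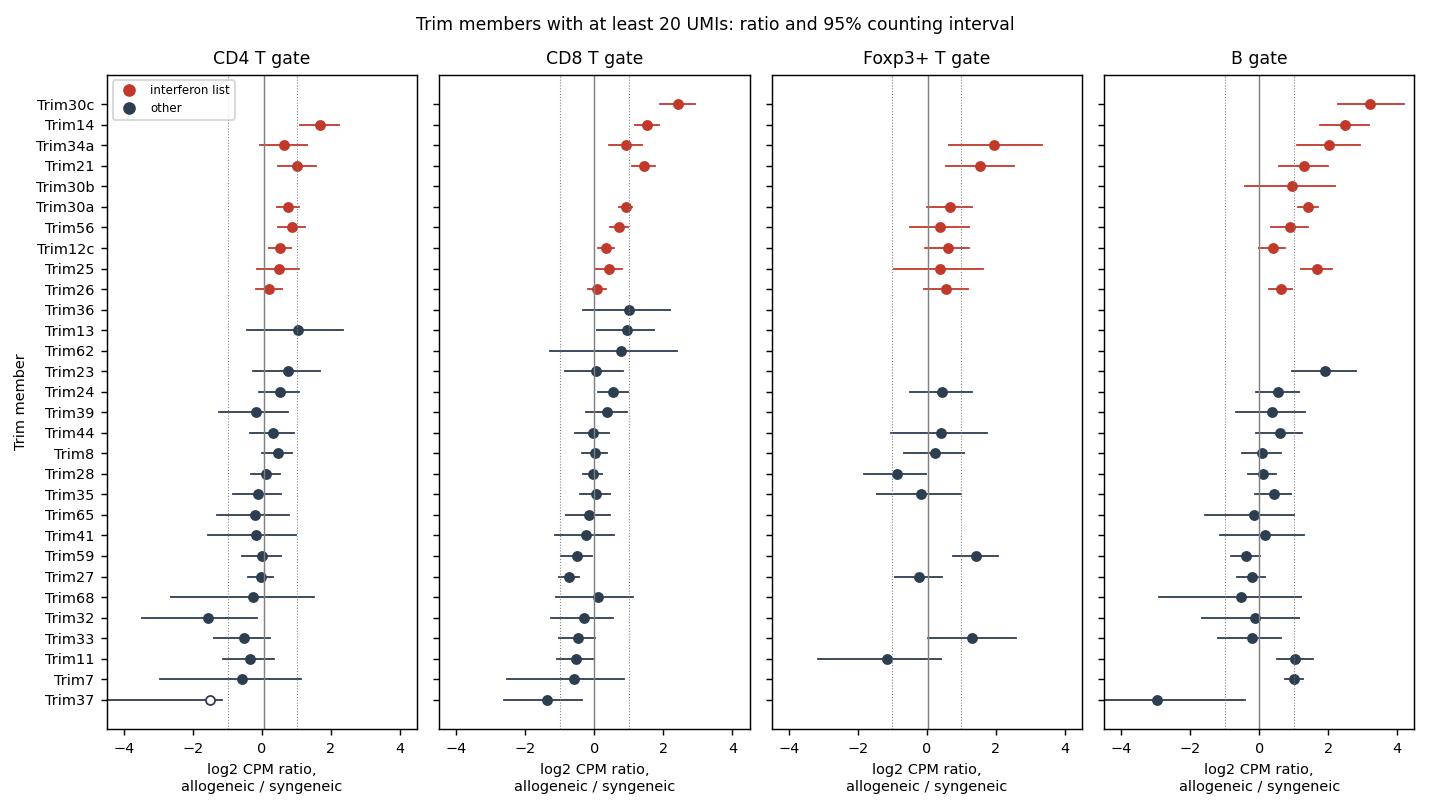
Log2 ratio of CPM, allogeneic over syngeneic, for every Trim member with at least 20 UMIs in a gate, with exact Poisson 95% intervals. Solid vertical lines mark the median log2 ratio of all genes that entered in the gate, which is close to no difference. Dotted lines mark 2-fold on either side of no difference. The open circle (Trim37 in CD4 T cells) is a value at the floor of 3 UMIs, since the allogeneic library had 0 UMIs there. Interferon-listed members (red) lie right of the line in every gate, and the other members lie on both sides.

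Trim30a, an antiviral gene of the chromosome 7 block that also restrains signalling to NF-kB, was among the interferon-listed members with most UMIs. Its level was 101 CPM in allogeneic against 60.0 CPM in syngeneic CD4 T cells (log2 0.75, 0.43 to 1.07), and 135 against 72.3 CPM in CD8 T cells (0.90, 0.72 to 1.09). Foxp3+ T cells had 96.1 against 60.7 CPM (0.66, 0.01 to 1.30). B cells had 179 against 66.8 CPM (1.42, 1.12 to 1.71), with a log2 ratio of 0.43 among the cells with at least 3447 UMIs. The 4 syngeneic levels of Trim30a lay close together, and the highest, in CD8 T cells, exceeded the next, in B cells, by a log2 ratio of 0.11 whose interval included 0 (-0.08 to 0.31). In the allogeneic library B cells were above CD8 T cells by 0.40 (0.11 to 0.69).

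Trim30c, its neighbour, had the highest ratios of the members that entered in CD8 T and B cells. CD8 T cells held 59 allogeneic UMIs (26.0 CPM) and 75 syngeneic UMIs (4.88 CPM), a log2 ratio of 2.41 (1.90 to 2.93). B cells held 29 UMIs (35.1 CPM) against 16 UMIs (3.79 CPM), a log2 ratio of 3.21 (2.28 to 4.19). The allogeneic UMIs were spread over 44 CD8 T cells, with at most 4 in 1 cell, and over 26 B cells, with at most 2 in 1 cell. CD4 T cells held 4 and 14 UMIs, too few to enter, and Foxp3+ T cells 1 and 1. Within the allogeneic library the CD8 T level of Trim30c was 6.89-fold the CD4 T level (log2 of CD4 T over CD8 T -2.79, -4.71 to -1.35), and within the syngeneic library it was 2.07-fold (-1.05, -1.99 to -0.21). Among 545285 UMIs of the allogeneic barcodes with under 200 genes, of which 64.4% were haemoglobin, Trim30c had 0 UMIs, which allows up to 5.50 CPM.

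Trim34a and Trim12c complete the well-measured genes of the block. Trim34a had 22.7 against 14.5 CPM in CD4 T cells (0.64, -0.07 to 1.31) and 22.1 against 11.7 CPM in CD8 T cells (0.91, 0.43 to 1.37). It had 38.5 against 9.94 CPM in Foxp3+ T cells (1.95, 0.64 to 3.34), from 14 and 9 UMIs. B cells had 24.2 against 5.92 CPM (2.03, 1.10 to 2.94), and 0.75 among cells with at least 3447 UMIs. Part of the 3′ end of Trim34b is shared with Trim34a: 24.9% of 100-base words in the last 500 bases of the Trim34b transcript occur there too. In the last 500 bases of the Trim34a transcript 0% of such words occur in another member. Reads from the shared part may not be separable, and how they were counted was not tested.

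Trim12c, a mouse relative of the retroviral restriction factor Trim5, was displaced less. It had 93.4 against 64.9 CPM in CD4 T cells (0.53, 0.19 to 0.85), 83.8 against 66.2 CPM in CD8 T cells (0.34, 0.11 to 0.57), 98.9 against 65.1 CPM in Foxp3+ T cells (0.60, -0.04 to 1.22) and 88.3 against 67.5 CPM in B cells (0.39, -0.00 to 0.76). In B cells with at least 3447 UMIs the sign of Trim12c turned, to -0.76. Its levels were alike across the gates of each library: the highest exceeded the next by 0.03 (-0.17 to 0.22) in the syngeneic library and by 0.08 (-0.51 to 0.65) in the allogeneic library. Trim30b entered in B cells alone, with 8 against 21 UMIs. Trim5, Trim12a, Trim30d and Trim34b reached 20 UMIs in no gate.

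Of the interferon-listed members outside the block, Trim14 and Trim21 were past 2-fold in every gate they entered. Trim14 is a mitochondrial adaptor of RNA sensing that lacks the RING domain. It had 42.5 against 13.3 CPM in CD4 T cells (1.67, 1.11 to 2.22), 43.7 against 15.2 CPM in CD8 T cells (1.53, 1.17 to 1.87) and 44.7 against 8.05 CPM in B cells (2.47, 1.76 to 3.19). Foxp3+ T cells held 8 and 10 Trim14 UMIs and did not enter. The allogeneic levels in B and CD8 T cells differed by 0.04 (-0.55 to 0.59), whereas in the syngeneic library the B cell level of Trim14 was below that of the T cell gates together (-0.85, -1.40 to -0.34). Trim14 overlaps Nans on the other strand.

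Trim21 is a cytosolic Fc receptor that ubiquitinates antibody-coated viruses. It was at least 2-fold higher in all 4 gates, with 37.8 against 18.5 CPM in CD4 T cells (1.03, 0.47 to 1.56), 50.3 against 18.7 CPM in CD8 T cells (1.43, 1.10 to 1.75), 57.7 against 19.9 CPM in Foxp3+ T cells (1.54, 0.56 to 2.53) and 32.6 against 13.3 CPM in B cells (1.30, 0.58 to 1.99). In cells with at least 3447 UMIs its log2 ratio was 0.57 in CD4 T, 1.15 in CD8 T, 1.21 in Foxp3+ T and 0.59 in B cells. The CD4 T value of Trim21 was past 2-fold under 8 of 12 settings, and not with median-of-ratios scaling. The 12 settings include the main one and changes of the UMI minimum per member, which leave the ratio of Trim21 as it was.

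Trim25, the ligase that activates the RNA sensor RIG-I (Ddx58), stood apart in B cells. B cells had 85.9 against 27.0 CPM (1.67, 1.22 to 2.11), and a log2 ratio of 1.15 among cells with at least 3447 UMIs. In T cells its levels were 28.3 against 20.2 CPM in CD4 T (0.49, -0.14 to 1.07), 29.6 against 22.0 CPM in CD8 T (0.43, 0.03 to 0.81) and 24.7 against 18.8 CPM in Foxp3+ T cells (0.40, -0.95 to 1.64). In the allogeneic library Trim25 was 2.91-fold higher in B than in CD8 T cells (1.54, 1.04 to 2.04), and in the syngeneic library 1.23-fold (0.30, -0.02 to 0.61).

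Trim56, a ligase linked to sensing through STING, had 73.6 against 40.4 CPM in CD4 T cells (0.86, 0.48 to 1.24), 65.3 against 39.7 CPM in CD8 T cells (0.72, 0.45 to 0.98) and 49.6 against 26.8 CPM in B cells (0.89, 0.34 to 1.42), the latter 0.16 among cells with at least 3447 UMIs. Foxp3+ T cells had 52.2 against 39.7 CPM (0.39, -0.49 to 1.23). Trim26, a ligase encoded within the MHC region, was the least displaced of the interferon-listed members that entered in the larger T cell gates, with 68.0 against 59.1 CPM in CD4 T (0.20, -0.19 to 0.57) and 60.0 against 56.6 CPM in CD8 T cells (0.08, -0.19 to 0.35). It had 93.4 against 62.9 CPM in Foxp3+ T cells (0.57, -0.09 to 1.21) and 119 against 76.3 CPM in B cells (0.64, 0.29 to 0.97), the latter 0.07 among cells with at least 3447 UMIs.

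**Figure D3:**
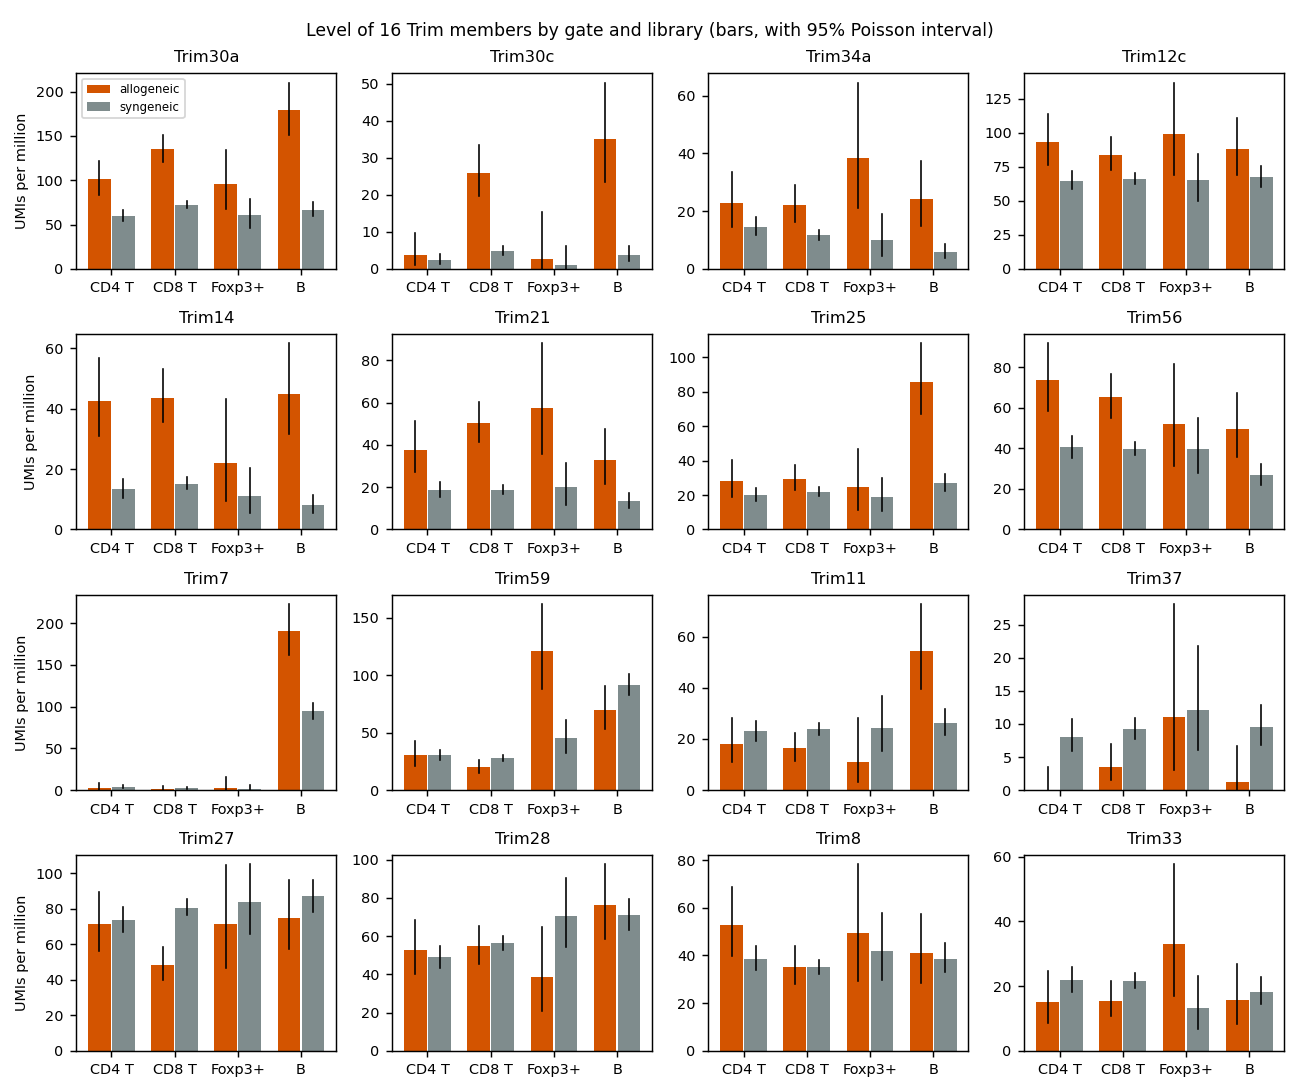
Levels of 16 Trim members in CPM, by gate and library. Bars start at 0 and stand for 1 library each, and lines are Poisson 95% intervals. Trim7 is high in B cells alone, Trim59 is highest in allogeneic Foxp3+ T cells, and Trim30c is high in allogeneic CD8 T and B cells.

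Cells of the syngeneic library alone were split by an interferon score, which involves no graft difference. The score counted UMIs of 29 interferon-induced genes, none of them a Trim gene, after each cell was thinned to 1000 UMIs. Cells with 3 or more score UMIs were set against cells with 0: 287 and 338 CD4 T cells, 582 and 777 CD8 T cells, and 87 and 415 B cells. A cell at 0 may still express these genes below detection, and 138 CD4 T, 252 CD8 T and 34 B cells lay exactly at the cut of 3. The allogeneic gates had 6 to 35 cells at 0 and the syngeneic Foxp3+ gate 33, under the minimum of 50, so no values are given for them. Bst2 is in the score list and also in the plasmacytoid dendritic cell marker list. The syngeneic B gate held 289 Siglech and 104 Ccr9 UMIs. Whether plasmacytoid dendritic cells are among the 87 score-high cells of that gate was not tested.

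In CD8 T cells 9 of 9 interferon-listed members were higher in the score-high cells and 9 had an interval above 1, where 49% and 6.6% of 9358 genes outside the score list did so. In CD4 T cells 8 of 8 were higher and 4 had such an interval (all genes 52.3% and 5.89%). In B cells 6 of 7 were higher and 4 had such an interval (49.5% and 8.5%). Their median log2 ratios were 0.97, 0.69 and 0.99, and those of the other Trim members -0.08 (17 genes), -0.02 (15 genes) and -0.20 (13 genes). Past 2-fold were 4, 2 and 3 interferon-listed members in CD8 T, CD4 T and B cells (all genes 1.93%, 2.79% and 5.82%), and 0, 0 and 2 of the others. Trim33 was on the other side in B cells, at -1.05 (-2.99 to 0.42) from 4 and 39 UMIs.

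Trim30c differed most in this split of CD8 T cells, with 11.9 CPM in score-high and 2.15 CPM in score-zero cells (log2 2.46, 1.43 to 3.64). Trim30a had 121 against 52.9 CPM in CD8 T cells (1.19, 0.96 to 1.43) and 180.5 against 46.6 CPM in B cells (1.95, 1.51 to 2.39). Trim12c, little displaced between the libraries, had 98.3 against 43.8 CPM in CD4 T cells (1.17, 0.75 to 1.59) and 97.8 against 50.1 CPM in CD8 T cells (0.97, 0.71 to 1.22). Trim14 had the order reversed, as its log2 ratio in CD8 T cells was 0.58 (0.08 to 1.08) in the score split and 1.53 between the libraries. Both comparisons use the same syngeneic cells, and the difference between them was not tested.

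Trim26 was lower in score-high B cells, with 48.4 against 78.8 CPM (-0.70, -1.41 to -0.06), and slightly higher in score-high CD8 T cells (0.42, 0.14 to 0.69). Among the other members, Trim44, which has no RING domain, had 41.8 against 15.9 CPM in B cells (1.40, 0.51 to 2.25), from 19 and 34 UMIs. Trim7 had 90.3 against 94.6 CPM in B cells (-0.07, -0.59 to 0.42). Trim8, a ligase that targets inhibitors of cytokine signalling, had 47.4 against 31.9 CPM in CD4 T cells (0.57, 0.03 to 1.11).

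**Figure D4:**
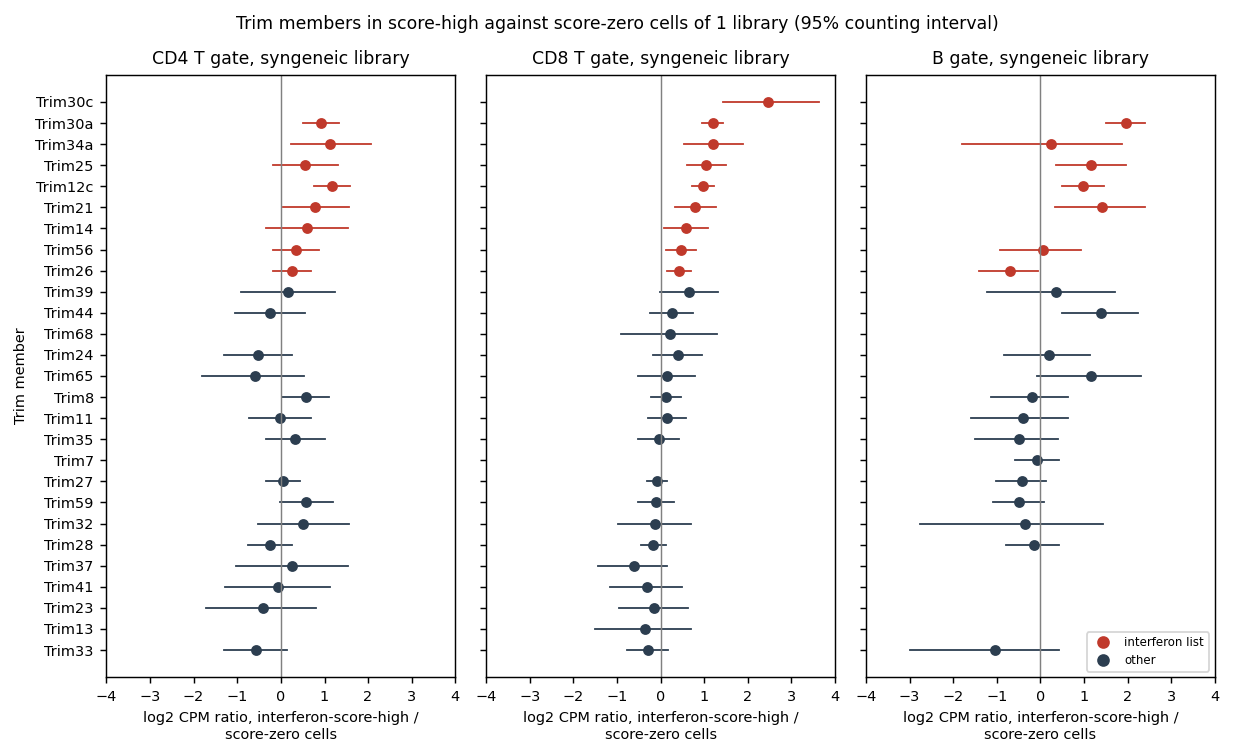
Log2 ratio of CPM between score-high and score-zero cells of the syngeneic library for Trim members with at least 20 UMIs in the split, with exact Poisson 95% intervals. Interferon-listed members (red) lie right of the line except Trim26 in B cells, and the other members lie around it, apart from Trim44 and Trim65 above 1 and Trim33 below -1 in B cells.

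Of the 10 interferon-listed members that entered any gate, 9 had an interval that excluded 1 in at least 1 gate. Members outside the interferon list split into 12 with such an interval and 8 whose intervals all included 1 (Trim35, Trim36, Trim39, Trim41, Trim44, Trim62, Trim65 and Trim68). The share of all genes by this any-gate rule was not computed, so the 12 cannot be set against a background. In CD8 T cells alone the interval of 19.4% of all genes lay above 1 and that of 17.8% below. The 8 are not shown to be stable, since they include genes with few UMIs. Trim35, a ligase of innate signalling, bounds the difference best among these 8: it had 22.9 against 22.3 CPM in CD8 T cells, with an interval of -0.41 to 0.46, and 48.4 against 36.2 CPM in B cells (0.42, -0.12 to 0.93). Trim36 and Trim62 entered in CD8 T cells alone, with 8 against 27 and 4 against 16 UMIs. Trim62, at 20 UMIs in all, was at the threshold, and Trim30c in CD4 T, Trim14 in Foxp3+ T and Trim30d in CD8 T cells, at 18 each, were just outside it. Trim30d had 13 allogeneic and 5 syngeneic UMIs there.

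Trim24, Trim28 and Trim33 are nuclear co-regulators of transcription with a PHD finger and bromodomain, and Trim28 (KAP1) recruits silencing complexes for KRAB zinc finger proteins. Trim28 had 52.9 against 49.02 CPM in CD4 T cells (0.11, -0.33 to 0.53), 54.7 against 56.3 CPM in CD8 T cells (-0.04, -0.33 to 0.23) and 76.2 against 70.8 CPM in B cells (0.11, -0.31 to 0.50). Foxp3+ T cells had 38.5 against 70.7 CPM (-0.88, -1.83 to -0.03), from 14 and 64 UMIs. Trim24 was nominally higher in each gate, at 31.1 against 21.9 CPM in CD4 T (0.51, -0.09 to 1.07), 23.4 against 15.9 CPM in CD8 T (0.55, 0.09 to 0.99), 49.4 against 36.4 CPM in Foxp3+ T (0.44, -0.48 to 1.31) and 36.3 against 24.6 CPM in B cells (0.56, -0.08 to 1.16). Its interval lay above 1 in CD8 T cells only.

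Trim33, a regulator of TGF-beta signalling, had 33.0 against 13.2 CPM in Foxp3+ T cells, from 12 and 12 UMIs (1.31, 0.03 to 2.60). It had 15.1 against 21.9 CPM in CD4 T (-0.54, -1.39 to 0.22), 15.4 against 21.5 CPM in CD8 T (-0.48, -1.03 to 0.02) and 15.7 against 18.2 CPM in B cells (-0.21, -1.19 to 0.64). In B cells with at least 3447 UMIs the ratio was 0.72, with the sign turned. The Foxp3+ value rests on few UMIs, and Trim33 did not reach 20 UMIs there among cells with at least 3447 UMIs.

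Trim27, a nuclear and endosomal ligase, was lower in CD8 T cells, at 48.5 against 80.8 CPM (-0.74, -1.03 to -0.45). In the other gates its ratio was -0.04 (-0.42 to 0.31) in CD4 T, -0.23 (-0.93 to 0.43) in Foxp3+ T and -0.22 (-0.63 to 0.17) in B cells. Trim8 had 52.9 against 38.6 CPM in CD4 T cells (0.45, 0.01 to 0.88) and 35.3 against 35.0 CPM in CD8 T cells (0.01, -0.35 to 0.35). The intervals of Trim8 included 1 in Foxp3+ T (0.24, -0.66 to 1.08) and B cells (0.09, -0.49 to 0.63).

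Trim37 and Trim32 were the members at least 2-fold lower whose interval excluded 1. Trim37, a centrosomal and peroxisomal ligase, had 0 UMIs in 287 allogeneic CD4 T cells, against 48 UMIs (8.09 CPM) in the syngeneic ones. Against the floor of 3 UMIs over the gate it was at least 2.86-fold lower. CD8 T cells held 8 against 141 UMIs (3.53 and 9.18 CPM, -1.38, -2.62 to -0.36), and B cells 1 against 40 UMIs (1.21 and 9.48 CPM, -2.97, -8.31 to -0.41). Foxp3+ T cells held 4 and 11 UMIs and did not enter. Among CD4 T cells with at least 3447 UMIs the log2 ratio of Trim37 at the same floor was -0.73. In such B cells the count was too low for a direction.

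Trim32, a ligase best known from muscle, had 4 against 66 UMIs in CD4 T cells (3.78 and 11.1 CPM, -1.56, -3.48 to -0.13). Its ratio was -0.29 (-1.25 to 0.54) in CD8 T and -0.11 (-1.65 to 1.17) in B cells. It lies within Astn2 on the other strand.

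Trim7, a ligase that binds glycogenin, was a B cell gene here. B cells held 158 allogeneic UMIs (191 CPM) and 400 syngeneic UMIs (94.8 CPM), a log2 ratio of 1.01 (0.74 to 1.28). These came from 98 and 289 cells, with at most 5 and 6 UMIs in 1 cell. T cell gates held 1 to 41 UMIs per library (1.10 to 4.21 CPM). B cells exceeded the 3 T cell gates together 88.1-fold in the allogeneic library (log2 6.46, 5.45 to 7.70) and 31.4-fold in the syngeneic library (4.97, 4.60 to 5.37). The allogeneic barcodes with under 200 genes had 22.0 CPM of Trim7, from 12 UMIs. The difference between the libraries is at the edge of the 2-fold rule, past it under 8 of 12 settings, and was 0.71 in B cells with at least 3447 UMIs. Here too the 12 settings include the main one and UMI minimums that cannot change the ratio.

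Trim59 has a transmembrane segment and is known from proliferating and tumour cells. Foxp3+ T cells held 44 allogeneic UMIs (121 CPM) from 33 cells and 41 syngeneic UMIs (45.3 CPM) from 36 cells, a log2 ratio of 1.42 (0.77 to 2.07). CD4 T cells had 30.2 against 30.2 CPM (0.00, -0.59 to 0.55), CD8 T cells 19.8 against 28.1 CPM (-0.50, -0.98 to -0.06) and B cells 70.1 against 91.4 CPM (-0.38, -0.81 to 0.02). In the allogeneic library the order was Foxp3+ T above B cells by 0.79 (0.19 to 1.38), then CD4 T and CD8 T, which differed by 0.61 (-0.10 to 1.29). In the syngeneic library B cells were above Foxp3+ T cells by 1.01 (0.55 to 1.52). Among cells with at least 3447 UMIs the ratio of Trim59 was 1.40 in Foxp3+ T cells and -0.63 in CD4 T cells.

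Trim11, a ligase of protein quality control, had 54.4 against 26.3 CPM in B cells (1.05, 0.52 to 1.56) and 16.3 against 23.8 CPM in CD8 T cells (-0.54, -1.07 to -0.05). CD4 T cells had 17.9 against 22.9 CPM (-0.35, -1.13 to 0.34). In Foxp3+ T cells it was the member past 2-fold lower, at 4 against 22 UMIs, with an interval that included 1 (-1.14, -3.14 to 0.41). Within the syngeneic library the B cell level of Trim11 differed from the T cell gates by 0.16 (-0.15 to 0.46), and within the allogeneic library it was 3.35-fold higher (1.74, 1.15 to 2.32). Among cells with at least 3447 UMIs the ratio of Trim11 between the libraries was 0.41 in B cells and -1.23 in CD4 T cells.

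Trim23, which carries an ARF-like GTPase domain, had 19 against 26 UMIs in B cells (23.0 and 6.16 CPM, 1.90, 0.96 to 2.81) and 15 against 99 UMIs in CD8 T cells (0.04, -0.85 to 0.83). Trim13, a ligase of the endoplasmic reticulum, had 17 against 60 UMIs in CD8 T cells (0.94, 0.07 to 1.74) and 7 against 19 in CD4 T cells (1.05, -0.45 to 2.36), and overlaps Dleu2 on the other strand. Without the 5% of cells with most UMIs the CD4 T ratio of Trim13 was -0.07. Trim39, Trim41, Trim44, Trim65 and Trim68 had log2 ratios between -0.52 and 0.61 in the gates they entered. Trim41 overlaps Rack1 on the other strand and Trim65 overlaps Trim47 on its own strand. Whether the counts use strand is not stated in the labels, so reads of such pairs may not be separable.

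The sensors and signalling partners of Trim proteins were followed in a list of 28 genes. At least 2-fold higher were 8 of 27 that entered in CD4 T, 9 of 28 in CD8 T, 7 of 22 in Foxp3+ T and 12 of 26 in B cells, and at least 2-fold lower 0, 0, 0 and 2. These stand beside the shares of all genes given for the Trim members. Ddx58, the sensor ubiquitinated by Trim25, had 105 against 30.8 CPM in B cells (1.77, 1.36 to 2.18), 95.7 against 44.5 CPM in CD8 T (1.10, 0.88 to 1.33) and 79.3 against 45.3 CPM in CD4 T cells (0.81, 0.44 to 1.17). Irf7, the amplifier of type I interferon, had 499 against 75.3 CPM in B cells (2.73, 2.51 to 2.94). Mavs, the adaptor below Ddx58, had a log2 ratio of 0.32 (-0.84 to 1.33) in CD4 T, -0.78 (-1.95 to 0.20) in CD8 T and 0.73 (-0.35 to 1.70) in B cells. Tmem173 (STING), the partner of Trim56, had -0.21 (-0.67 to 0.22), 0.10 (-0.20 to 0.40) and -0.27 (-0.83 to 0.25) in these gates. Lower past 2-fold in B cells were Ikbke, with 0 against 41 UMIs, and Tyk2, with 6 against 64 UMIs and an interval that included 1. Both were named after their values were seen.

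Of 4 family members whose symbol does not begin with Trim, Pml, the organiser of nuclear bodies and a known interferon target, had 66.1 against 21.9 CPM in CD4 T cells (1.59, 1.15 to 2.02), 65.3 against 25.5 CPM in CD8 T (1.36, 1.07 to 1.63), 85.1 against 32.0 CPM in Foxp3+ T (1.41, 0.63 to 2.19) and 174 against 64.9 CPM in B cells (1.42, 1.12 to 1.72). Mid1 entered in 3 gates with log2 ratios of 0.53 (-0.80 to 1.68), 0.60 (-0.12 to 1.26) and 0.30 (-1.13 to 1.52) in CD4 T, CD8 T and B cells. Mid2 and Mefv reached 20 UMIs in no gate.

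Of the 67 members, 16 reached 20 UMIs in all 4 gates, 30 in at least 1 and 37 in none. Among the 37, 18 had at least 1 UMI in the gates and 19 had 0. In the whole libraries of 8415043 and 46486632 UMIs, 15 members had 0 UMIs, which allows up to 0.357 and 0.0645 CPM, among them Trim10, Trim15 and Trim31, neighbours of Trim26 on chromosome 17, and the muscle gene Trim72. Trim63, a muscle ring finger gene, had 3 and 1 UMIs.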

How the data were processed

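For each of the 2 libraries the authors deposited raw UMI counts, by gene and barcode. Per the labels' protocols the kit was of the Chromium 3′ type. The submitters' processing notes list Cell Ranger 2.2.0, STAR, Seurat 2.3.4 and mm10 without their roles. How barcodes were chosen is not stated in the labels. The mm10 assembly is of C57BL/6J, and how Balb/c reads map to each member was not tested.

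Cells with under 200 genes or over 10% mitochondrial UMIs were left out (2106 allogeneic and 7957 syngeneic cells remained), and the rest were gated on Cd3d, Cd3e, Cd3g, Cd4, Cd8a, Cd8b1, Foxp3 and B cell genes that include Cd79a, Cd79b and Ms4a1. T cells needed 1 CD3 UMI and at most 1 UMI over B cell genes without Cd79b, and B cells 2 detected B genes and at most 1 CD3 UMI. Foxp3+ T cells lacked Cd8a and Cd8b1, CD4 T cells lacked these and Foxp3, and CD8 T cells lacked Cd4 and Foxp3. No doublet caller was run. Gates that turn on 1 UMI depend on depth, which differed between the libraries. Levels and ratios were computed with Python 3.11.15, numpy 2.4.6, scipy 1.17.1 and pandas 2.3.3, and the ratio and interval code was tested on simulated data. A ratio against 0 UMIs used a floor of 3 UMIs per gate. Some items, a gate gene among them, are not reported here. PCR and capture are not covered by the intervals.

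The members, gene lists and gates were chosen with earlier results of these data known. Values are given for members with at least 100 UMIs over the libraries and gates, or past 2-fold with an interval excluding 1; others are named by detection or overlap. Genes were matched by identifier to GENCODE (67 of 67) and by symbol to RefSeq promoters.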

Additional observations from a re-analysis of the deposited data

Results flagged for a closer look

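Trim11 and Trim59 lay on opposite sides of no difference in 2 gates, with intervals that excluded 1 in each. For Trim11 the log2 ratio, allogeneic over syngeneic, was 1.05 in B cells and -0.54 in CD8 T cells. For Trim59 it was 1.42 in Foxp3+ T cells and -0.50 in CD8 T cells. With 1 library per group the difference between the gates was not tested.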

How the results depend on the processing

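No paired analysis was possible because each group has 1 library. Leaving out shared barcodes and leaving out cells over 1% neutrophil-marker UMIs were added after seeing the data. The number of members at least 2-fold higher in CD4 T cells was 3, and became 1 with median-of-ratios scaling, 1 with totals that leave out haemoglobin, mitochondrial and ribosomal genes, 11 without the filter on low counts and 7 at 1.5-fold. In CD8 T cells it was 4, and became 11 without the filter and 9 at 1.5-fold. In Foxp3+ T cells it was 4, and became 2 in cells with at least 3447 UMIs, 2 without the 5% of cells with most UMIs, 1 with at least 50 UMIs per member and 11 without the filter. Without the filter, ratios rest on a few UMIs. The median of the interferon-listed members in CD8 T cells was 0.90, and became 0.70 in cells with at least 3447 UMIs and 1.17 without the filter. In B cells it was 1.36, and became 0.67 in cells with at least 3447 UMIs. The cause was not tested. The other 123 values of counts and medians were within 1.5 times or within the spread set for them. Of the ratios of single members, 15 moved and 994 did not, and no value past 2-fold with an interval that excluded 1 changed sign. A ratio counted as moved only when it left the member's own main interval, so large changes within wide intervals are among the 994. The settings with at least 50 UMIs per member and without the filter cannot change a single member's ratio. Their values are also among the 994, which is therefore no measure of stability. The Trim13 ratio in CD4 T cells, past 2-fold with an interval that included 1, turned to -0.07 without the 5% of cells with most UMIs. In cells with at least 3447 UMIs the median of all genes in B cells was -0.12 on the log2 scale. In the allogeneic library 3 UMIs are 8.24 CPM of the Foxp3+ T gate, which has 97 cells.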
